A study of Mus musculus with 14 samples.

Results

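The heat shock proteins and J-domain chaperones described here are the mouse genes whose symbols begin with Hspa, Hspb, Hspd, Hspe, Hsph, Dnaja, Dnajb or Dnajc followed by a digit, or with Hsp90. Ensembl identifiers were matched to symbols, and 10 pseudogenes caught by the same letters were left out. This gave 71 genes of 38553. They are 13 of the Hsp70 and Hsp110 class, 3 of the Hsp90 class, Hspd1 and Hspe1 of the chaperonin, 8 with an Hspb symbol, 4 Dnaja, 13 Dnajb and 28 Dnajc genes. Of the 71, 63 reached 0.5 FPKM (sequenced fragments per unit of transcript length and per mapped fragments of a library) in at least 3 of the 12 white-fat libraries and could be tested. Dnajb8 and Dnajc5b were listed at 0 in all 14 libraries, and Dnajb7, Dnajc22, Dnajc5g, Hspa1l, Hspb3 and Hspb9 stayed under the filter.

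RNA was sequenced from adipocytes of male C57BL/6 mice that ate regular chow (the normal diet) or a high-fat diet for 16 weeks, beginning when they were weaned at 3 weeks. Epididymal (visceral white) and inguinal (subcutaneous white) fat were digested with collagenase for 20 min and interscapular brown fat for 40 min, and the floating cell layer was kept. Every library pooled fat from 3 to 5 mice, all of one background and with no engineered allele named in the labels. Each white depot and diet had 3 libraries, which the labels number 0, 1 and 2, and brown fat had 1 library per diet.

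Hsp70 proteins bind unfolded stretches of protein and release them in a cycle driven by ATP, and J-domain proteins hand them their clients and start ATP hydrolysis. Hsp110 proteins exchange the nucleotide, Hsp90 finishes the folding of signalling proteins, the chaperonin folds mitochondrial matrix proteins, and small heat shock proteins hold unfolding proteins in oligomers. After heat or proteotoxic stress the transcription factor HSF1 raises the inducible genes among them through inverted repeats of GAA, and the unfolded protein response raises those of the endoplasmic reticulum.

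The promoters of several members carry such letters. They are shown because Hspa5 holds them, as do Hspa1a, Hspa1b, Hspb1 and Dnaja1, the members that differed most between the brown libraries. The stretches were thus picked from values described below and are no test of them. The 250 bases before each RefSeq start (GRCm38.p6) were read for 57 of the 71 members. The pair of inverted units GAANNTTC, which reads the same on both strands, was present in 11 of 57 members (19.3%), against 7.73% of 27025 genes with a window of this length. The longer form, this pair followed by GAA after 2 further bases and searched on both strands, was in 3 members (0.514% of genes). The endoplasmic reticulum stress element, CCAAT followed by CCACG after 9 bases and searched on both strands, was in 3 members (0.130% of genes). Capitals below mark the matched letters and every line reads 5′ to 3′ on the strand of its gene.
Hspa1a, chr17:34972241-34972272, minus strand: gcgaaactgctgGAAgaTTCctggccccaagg
Hspa1b, chr17:34959323-34959354, minus strand: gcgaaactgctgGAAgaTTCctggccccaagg
Hspb1, chr5:135887810-135887841, plus strand: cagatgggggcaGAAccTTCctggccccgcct
Dnaja1, chr4:40722332-40722363, plus strand: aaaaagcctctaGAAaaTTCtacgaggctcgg
Hspb6, chr7:30553169-30553200, plus strand: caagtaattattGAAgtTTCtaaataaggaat
Dnajb6, chr5:29735840-29735876, plus strand: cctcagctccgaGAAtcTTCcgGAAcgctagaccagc
Hspd1, chr1:55088047-55088083, minus strand: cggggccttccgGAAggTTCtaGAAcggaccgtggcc
Hspe1, chr1:55088047-55088083, plus strand: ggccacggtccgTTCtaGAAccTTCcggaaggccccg
Hspa5, chr2:34772013-34772055, plus strand: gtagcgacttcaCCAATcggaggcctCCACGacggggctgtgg
Dnajc3, chr14:118937815-118937857, plus strand: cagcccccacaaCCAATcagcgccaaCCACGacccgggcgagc
Hsp90b1, chr10:86705626-86705668, minus strand: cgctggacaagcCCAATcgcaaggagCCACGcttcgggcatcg
Hspd1 and Hspe1 are transcribed away from each other on chromosome 1 and share 1 stretch, printed from both strands. The 2 copies Hspa1a and Hspa1b have windows alike at 247 of 250 bases, so their printed stretches are the same. Their bodies are also near-identical, so reads may have been split between them and the level of either copy is uncertain. The pair was also found in Dnaja4, Dnajc27 and Hspb3. A match describes the letters only.

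Libraries that stood apart bear on the values below. In 8 libraries each of the 22 mitochondrial tRNA genes was listed at 0, namely the 6 epididymal libraries, library 0 of the inguinal normal-diet group and the brown high-fat library. The other 6 had 10 to 19 of these genes above 0, so depot, diet and this library property overlap. Inguinal normal-diet libraries 0 and 2 had lymphocyte markers summing to 605 and 874 FPKM, against 0.691 to 78.7 in the rest. Epididymal normal-diet library 2 held testis and epididymis markers summing to 119 FPKM (at most 1.37 elsewhere), and the testis-type members Hspb9 (4.49 FPKM), Hspa1l (1.12 FPKM) and Dnajb3 (5.52 FPKM) had their highest value there. All 7 adipocyte markers were above 0 in every library, and brown markers summed to 466 and 1584 FPKM in brown libraries and 10.1 to 297 in white ones. In tissue fractions such as these, fewer cells of a type and less RNA per cell cannot be told apart.

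Members differed widely in level. Averaged over the 14 libraries, the cytosolic Hsp90 gene Hsp90ab1 had the highest level per length at 311 FPKM, followed by the constitutive cytosolic Hsp70 Hspa8 at 214 and the endoplasmic reticulum Hsp70 Hspa5 (BiP) at 189. Hspa9 (mitochondrial mortalin) averaged 116 FPKM, Hsp90b1 (Grp94) 116, Hspe1 84.0, Hspb1 (Hsp25) 76.8, Dnajc15 of the inner mitochondrial membrane 74.0 and Hspd1 73.9. Together the members made up 0.493% to 0.683% of the nuclear protein-coding FPKM in every white library and the normal-diet brown library, and 0.983% in the brown high-fat library.

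In epididymal adipocytes the high-fat diet was associated with more RNA of 8 members and less of 2. Those higher were the endoplasmic reticulum Hsp70 Hspa5, the Hsp110 gene Hsph1, the small heat shock genes Hspb6 and Hspb7, the atypical Hsp70 Hspa12a, and the J-domain genes Dnajb4, Dnajb13 and Dnajc6. Those lower were Hspa12b, the atypical Hsp70 best known from endothelium, and the stress-inducible Hspa1b. The 10 of 63 called (15.9%) compare with 19.5% of all 14959 genes tested (12.2% higher, 7.35% lower). The median log2 difference was 0.27 over the members and 0.07 over all genes. The diets did not overlap for 17 members higher and 6 lower on the high-fat diet, against 25.7% and 16.7% of all genes (42.4% in either direction). Heat shock proteins made up 7 of the calls (5 higher and 2 lower of 23 tested) and J-domain genes 3 (all higher, of 40 tested).

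Hspa5 read 94.5, 165 and 122 FPKM in the 3 normal-diet epididymal libraries and 268, 325 and 351 FPKM in the 3 high-fat ones. The groups did not overlap (log2 difference 1.33 ± 0.32, adjusted p = 0.0110, with SE). Hsph1, an exchange factor of cytosolic Hsp70, moved from 3.81, 7.48 and 7.40 to 15.7, 19.8 and 18.5 FPKM, again without overlap (log2 difference 1.51 ± 0.33, adjusted p = 0.00782). The plots of diet-responsive members show both genes with every high-fat epididymal library above every normal-diet one. Their close relatives did not pass the test. Hspa4, also of the Hsp110 class, had means of 31.6 ± 8.39 and 45.2 ± 8.47 FPKM (SD, n = 3, adjusted p = 0.251). Hsp90b1, which shares the endoplasmic reticulum with Hspa5, had 113 ± 33.9 and 148 ± 28.3 (adjusted p = 0.446). None of the 10 tested J-domain genes of the endoplasmic reticulum was called by limma in this depot (1 at an unadjusted p under 0.05), although 5 had all high-fat libraries above all normal-diet ones, as 25.7% of all genes did. Dnajc3, which carries the same stress element as Hspa5, lay at 21.5 to 24.0 FPKM on the normal diet and 23.6 to 24.5 on the high-fat diet (log2 difference 0.07 ± 0.15, adjusted p = 0.821). Dnajb9 (ERdj4), a J-domain regulator of Hspa5, lay at 18.4 to 24.4 and 29.7 to 34.96 (log2 difference 0.54 ± 0.30, adjusted p = 0.246). Of the 3 members with the stress element, Hspa5 passed the test in this depot and Hsp90b1 and Dnajc3 did not. Outside the members, limma called 0 of 6 other folding genes of the endoplasmic reticulum (3 at an unadjusted p under 0.05). Of these 6, 5 had all high-fat libraries above all normal-diet ones. Hyou1, the exchange factor of Hspa5, is not among the 6 because it was listed with the co-chaperones below. It was called higher, with means of 14.5 FPKM on the normal diet and 27.7 on the high-fat diet.

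Of the 5 small heat shock genes tested, 2 rose. Hspb6 (Hsp20) read 12.4, 13.9 and 11.8 FPKM on the normal diet and 19.0, 21.1 and 20.7 on the high-fat diet (log2 difference 0.66 ± 0.16, adjusted p = 0.0113). Hspb7, a muscle-rich member, read 4.13, 6.64 and 5.68 and 16.6, 16.9 and 26.1 (log2 difference 1.76 ± 0.46, adjusted p = 0.0193). In both genes the lowest high-fat library lay above the highest normal-diet one. The abundant Hspb1 and Hspb8 did not pass, with means of 88.1 ± 16.1 and 83.0 ± 15.7 FPKM for Hspb1 (adjusted p = 0.871) and 56.5 ± 9.17 and 67.4 ± 13.9 for Hspb8 (adjusted p = 0.665).

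Among the J-domain genes, Dnajb13, a component of motile cilia, moved from 1.88, 2.63 and 1.28 to 8.33, 8.47 and 8.82 FPKM (log2 difference 1.94 ± 0.39, adjusted p = 0.00461). Dnajc6 (auxilin, which uncoats clathrin vesicles) moved from 0.754, 1.40 and 2.14 to 3.78, 8.02 and 3.73 FPKM (log2 difference 1.54 ± 0.41, adjusted p = 0.0192). Dnajb4, a partner of cytosolic Hsp70, moved from 21.5, 22.5 and 21.8 to 45.0, 40.2 and 38.8 FPKM (log2 difference 0.90 ± 0.23, adjusted p = 0.0173). In all 3 genes the groups stood apart, tightly for Dnajb13 and Dnajb4 and more loosely for Dnajc6, whose high-fat library 1 was far above the others. The atypical Hsp70 Hspa12a read 13.95, 16.9 and 18.2 FPKM on the normal diet and 32.5, 31.3 and 38.3 on the high-fat diet (log2 difference 1.04 ± 0.25, adjusted p = 0.0125). Its paralogue Hspa12b went the other way, from 27.9, 35.9 and 22.8 to 6.00, 7.81 and 10.2 FPKM (log2 difference -1.79 ± 0.24, adjusted p = 0.000304). All 9 endothelial markers tested were lower on the high-fat diet in this depot, their summed level being 53.5 to 106 FPKM against 569 to 616, and their part in the Hspa12b difference was not tested. Macrophage markers were higher for 7 of 10 (summed level 1199 to 2129 against 340 to 608 FPKM) and immediate-early genes, which tissue digestion can induce, for 10 of 14 (summed level 1785 to 2586 against 440 to 1008), and their part in the higher members was not tested. Fibroblast and preadipocyte markers were lower for 4 of 8 (241 to 373 against 691 to 1183 FPKM summed).

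The stress-inducible Hsp70 pair was low in white fat. In epididymal adipocytes Hspa1b read 13.4, 18.2 and 12.5 FPKM on the normal diet and 4.23, 3.32 and 2.09 FPKM on the high-fat one (log2 difference -2.06 ± 0.53, adjusted p = 0.0165). Hspa1a read 7.26, 9.98 and 8.21 and 4.69, 4.35 and 3.03 FPKM, without overlap but short of the threshold (log2 difference -0.999 ± 0.54, adjusted p = 0.235). Both copies read lower in every high-fat library than in any normal-diet one. The other core chaperones did not pass: Hspa8 had means of 209.8 ± 61.5 and 346 ± 43.6 FPKM (adjusted p = 0.0934), and Hsp90aa1, the inducible cytosolic Hsp90, 57.6 ± 21.9 and 85.7 ± 20.1 (adjusted p = 0.163). The smallest adjusted p among Hsp90ab1, Hspa9, Hspd1, Hspe1, Dnaja1 and Dnajb1 was 0.0685, for Dnajb1, with means of 17.1 ± 5.94 and 27.9 ± 5.04 FPKM.

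Left-out libraries decided part of these epididymal calls. Dnajb13, Hspa12b, Hspa5 and Hsph1 were called with each of the 12 white libraries left out in turn (adjusted p at most 0.0486). The call was lost for Dnajb4 without high-fat library 0 (adjusted p = 0.0719) or 1 (0.0515), for Dnajc6 without high-fat 1 (0.0942) or normal-diet 0 (0.0796), for Hspa12a without high-fat 2 (0.0539), for Hspa1b without high-fat 2 (0.0681) or normal-diet 1 (0.0578), for Hspb6 without high-fat 1 (0.0515), and for Hspb7 without high-fat 2 (0.0801) or normal-diet 0 (0.0724). Scaling each library to its nuclear protein-coding sum, which moved the median of all genes to -0.09, gave 6 higher and 5 lower in place of 8 and 2, and quantile normalization 6 and 3. Dnajb4 was lost under both (adjusted p = 0.0614 and 0.132), Hspb6 under the former (0.0802) and Hspa12a under the latter (0.0568). Hspb7 was lost with a pseudocount of 0.1 (0.138).

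**Figure D1:**
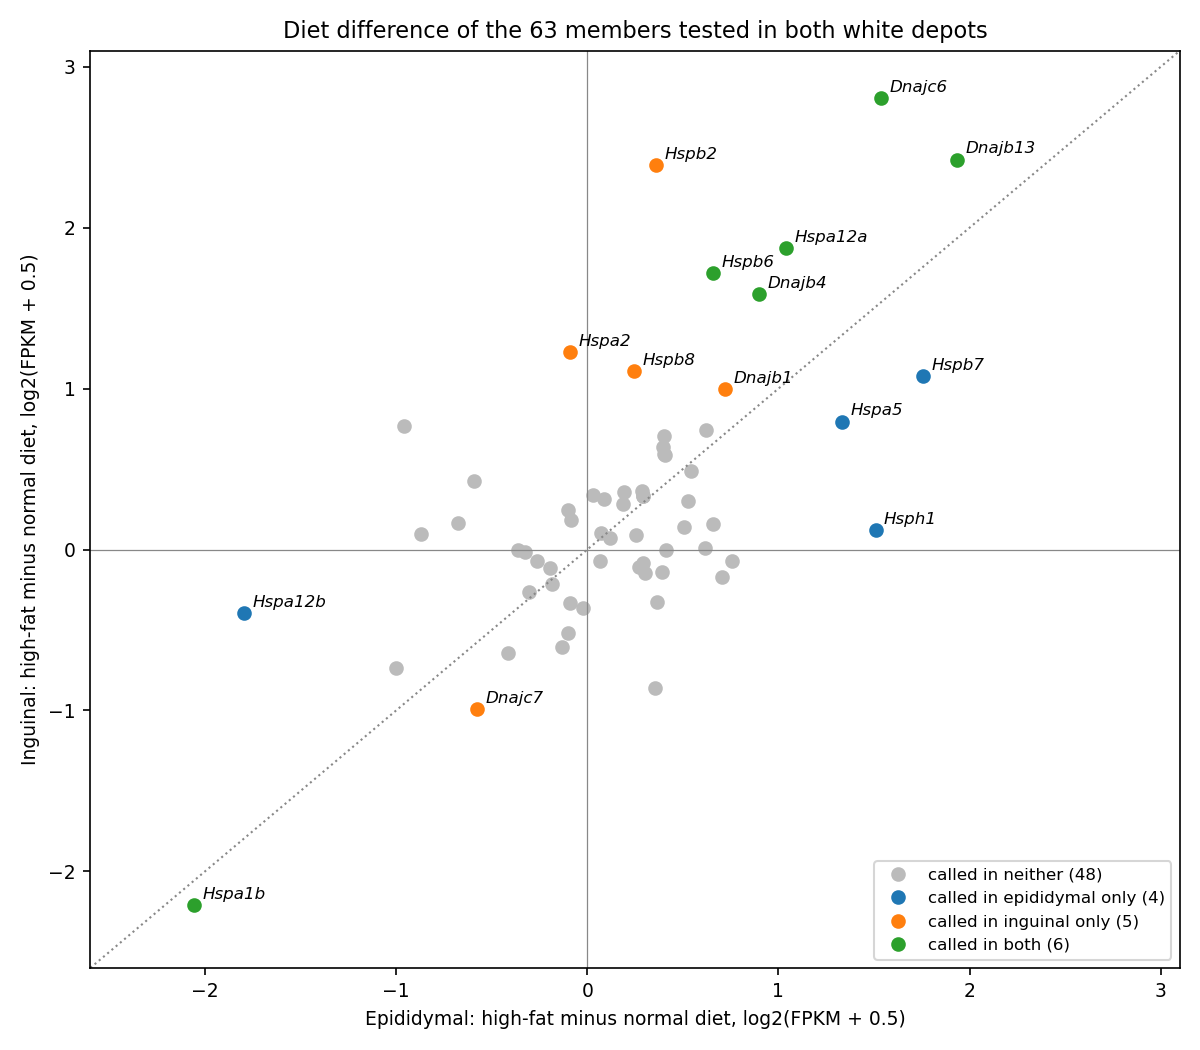
Log2 difference between high-fat and normal diet for the 63 tested members in epididymal (horizontal) and inguinal (vertical) adipocytes, on the log2(FPKM + 0.5) scale, 1 point per gene, coloured by whether limma called it. The 6 members called in both depots lie in the upper right (Dnajb13, Dnajb4, Dnajc6, Hspa12a and Hspb6) and the lower left (Hspa1b), and the dotted line marks equal differences.

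In inguinal adipocytes the high-fat diet was associated with more RNA of 9 members and less of 2. Higher were the small heat shock genes Hspb2, Hspb6 and Hspb8, the Hsp70 class genes Hspa12a and Hspa2, and the J-domain genes Dnajb1, Dnajb4, Dnajb13 and Dnajc6. Lower were Hspa1b and Dnajc7, a co-chaperone that binds both Hsp70 and Hsp90. The 11 of 63 called (17.5%) compare with 19.5% of all genes (9.3% higher, 10.2% lower), and the median log2 difference was 0.14 over the members and -0.01 over all genes. The high-fat libraries lay wholly above the normal-diet ones for 16 members and wholly below for 6, against 15.8% and 17.3% of all genes (33.1% in either direction). Heat shock proteins gave 5 higher and 1 lower of 23 tested, and J-domain genes 4 higher and 1 lower of 40. Of the 8 members higher in epididymal and the 9 higher in inguinal adipocytes, 5 were shared (Dnajb13, Dnajb4, Dnajc6, Hspa12a and Hspb6), which is 62.5% of the first list and 55.6% of the second. The same overlap was not counted over all genes, so these shares do not show whether members differ from other genes.

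Hspb6 had the smallest adjusted p of the members. It read 6.54, 6.76 and 8.61 FPKM on the normal diet and 24.4, 26.2 and 24.4 on the high-fat diet, so the lowest high-fat library was far above the highest normal-diet one (log2 difference 1.72 ± 0.16, adjusted p = 6.9e-05). Hspb2 (the partner of myotonic dystrophy kinase) read 0.739, 0.792 and 0.399 and 8.37, 3.91 and 4.80 FPKM (log2 difference 2.39 ± 0.32, adjusted p = 0.000778). High-fat library 0 was the highest and all 3 stood above the normal diet. Hspb8, which works with Bag3 in selective autophagy, read 23.8, 52.2 and 18.5 and 52.3, 68.8 and 65.9 FPKM (log2 difference 1.11 ± 0.32, adjusted p = 0.0305), the normal-diet library 1 nearly reaching the lowest high-fat one. Hspb7 was low, at 0.836, 1.71 and 0 and 1.15, 2.03 and 2.82 FPKM, and overlapped between diets (log2 difference 1.08 ± 0.46, adjusted p = 0.124). Hspb1 did not pass, with means of 40.7 ± 16.5 and 44.2 ± 4.55 FPKM (adjusted p = 0.656). Of the 5 tested, 3 rose in this depot. Their relative Cryab (alpha-B crystallin), whose gene neighbours Hspb2 but which the symbols do not include, rose in both (log2 difference 1.22 ± 0.24, adjusted p = 0.00399 in epididymal, log2 difference 1.97 ± 0.24, adjusted p = 0.000441 in inguinal). Smooth muscle and pericyte markers were higher for 3 of 6 and skeletal muscle markers for 3 of 7 on the inguinal high-fat diet, with summed levels of 149 to 169 against 38.5 to 113 FPKM and 73.0 to 100.5 against 25.6 to 53.9 FPKM, and their part in the small heat shock genes was not tested.

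The 3 J-domain genes called in epididymal adipocytes were higher here too. Dnajb13 read 1.06, 2.17 and 0.197 FPKM on the normal diet and 6.99, 6.80 and 7.67 on the high-fat diet (log2 difference 2.42 ± 0.39, adjusted p = 0.00203). Dnajb4 read 14.2, 22.8 and 10.8 and 55.4, 41.5 and 44.2 (log2 difference 1.59 ± 0.23, adjusted p = 0.00119). Dnajc6 was near 0 on the normal diet, at 0.0614, 0.0263 and 0.0267 FPKM, and read 4.20, 4.79 and 1.65 on the high-fat diet (log2 difference 2.81 ± 0.41, adjusted p = 0.00115), a difference whose size depends on the pseudocount of 0.5. Whether the diet effect differed between depots was not shown for any of the 3 (interaction adjusted p = 0.669, 0.242 and 0.218). Dnajb1 (Hsp40), the classical partner of inducible Hsp70, read 21.2, 25.3 and 15.9 and 42.7, 34.9 and 47.5 FPKM (log2 difference 1.00 ± 0.25, adjusted p = 0.0180). Dnajc7 fell from 88.5, 72.6 and 89.1 to 32.9, 42.7 and 50.9 FPKM (log2 difference -0.99 ± 0.25, adjusted p = 0.0165). None of the 5 J-domain genes of mitochondria was called in either depot by limma (0 and 1 at an unadjusted p under 0.05), and none of the 10 of the endoplasmic reticulum was called in this depot (3 at an unadjusted p under 0.05).

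Among Hsp70 class genes, Hspa12a read 10.5, 18.03 and 7.69 FPKM on the normal diet and 39.8, 46.0 and 43.5 on the high-fat diet (log2 difference 1.87 ± 0.25, adjusted p = 0.000774). Hspa2, best known from spermatogenesis, read 2.55, 3.26 and 2.37 and 5.61, 8.19 and 7.45 FPKM (log2 difference 1.23 ± 0.23, adjusted p = 0.00442). Hspa1b read 16.6, 6.71 and 5.94 and 0.743, 0.750 and 4.65 FPKM (log2 difference -2.21 ± 0.53, adjusted p = 0.0133). All 3 genes separated the diets, Hspa1b narrowly, since its lowest normal-diet library was at 5.94 FPKM and its highest high-fat library at 4.65. Hspa5 had means of 131 ± 70.0 and 211 ± 28.4 FPKM with normal-diet library 1 at 212 FPKM (adjusted p = 0.0983), and Hsph1 had 10.3 ± 4.97 and 10.8 ± 2.91 (adjusted p = 0.830). Hspa8, Hspa9, Hspa4, Hspa1a, the 3 Hsp90 genes, Hspd1, Hspe1, Dnaja1, Dnajb9 and Dnajc3 did not pass either, with log2 differences from -0.74 (Hspa1a) to 0.48 (Dnajb9).

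Normal-diet library 0 was the one inguinal library with all mitochondrial tRNA genes at 0. Without it, 8 members were called, all higher; Dnajc7 (adjusted p = 0.05002), Hspa1b (0.0503) and Hspb8 (0.0910) were lost. Lymphocyte markers were lower for 10 of 10 on the high-fat diet (10.2 to 18.6 against 78.7 to 874 FPKM summed). Immediate-early genes were higher for 8 of 14 (1916 to 2695 against 441 to 1461 FPKM summed), while fibroblast and preadipocyte markers were lower for 4 of 8 (340 to 479 against 604 to 1771), and their part in the diet calls was not tested. Leaving out the lymphocyte-rich libraries 0 and 2 leaves normal-diet library 1 assumed to vary like the other groups. The log2 differences were then 0.70 for Dnajb1, -0.80 for Dnajc7, -1.85 for Hspa1b and 0.998 for Hspa2. For Hspb8 it was 0.24, which had been 1.11. The count of members called was 7 without high-fat library 0 (12.5% of all genes) and 20 without normal-diet library 1 (31.5% of all genes). Dnajb1 was lost without high-fat 0, high-fat 2 or normal-diet 2 (adjusted p at most 0.0706), Dnajc7 also without high-fat 0 or normal-diet 2 (at most 0.0664), Hspa1b also without high-fat 0 or 1 (at most 0.0581), and Hspb8 also without high-fat 0, 1 or 2 or normal-diet 2 (at most 0.109).

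**Figure D2:**
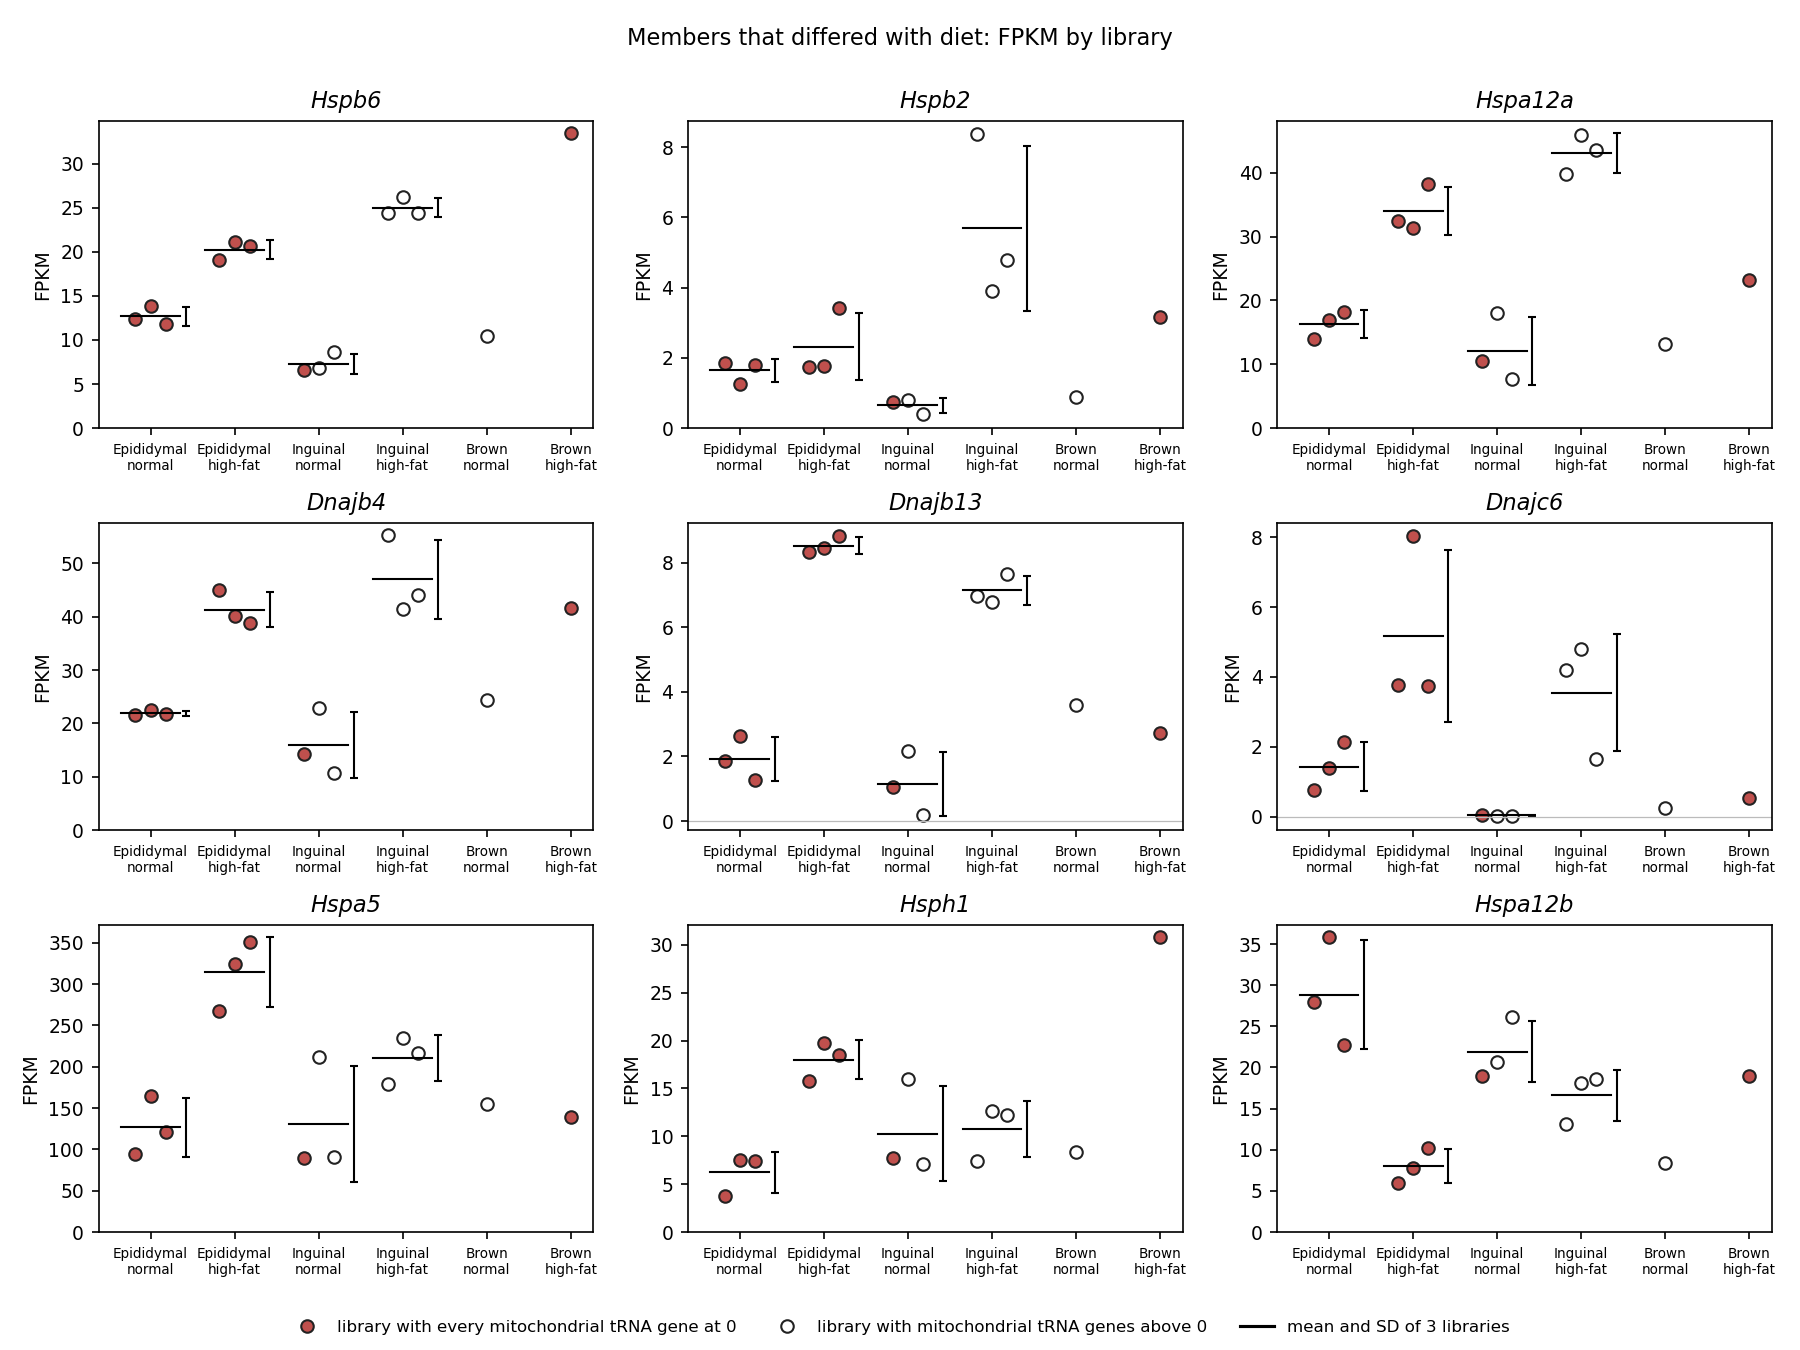
FPKM of 9 members in each of the 14 libraries by depot and diet, with mean and SD of the 3 libraries of each white group; filled points are libraries with every mitochondrial tRNA gene at 0. Hspb6 and Hspa12a are higher in all high-fat white libraries than in the normal-diet libraries of the same depot, Hspa5 and Hsph1 separate the diets in epididymal adipocytes, and Hspa12b is lowest on the epididymal high-fat diet.

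The diet effect itself differed between the white depots for 4 members, all with a smaller or more negative effect in epididymal adipocytes. These were Hspb2, Hspb6, Hspa2 and Hspa12b, 4 of 63 (6.35%) against 7.22% of all genes (4.8% higher, 2.42% lower). The difference of effects (epididymal minus inguinal) was -2.03 ± 0.46 for Hspb2 (SE, adjusted p = 0.0224), -1.06 ± 0.22 for Hspb6 (adjusted p = 0.0161), -1.32 ± 0.33 for Hspa2 (adjusted p = 0.0335) and -1.40 ± 0.34 for Hspa12b (adjusted p = 0.0300). Hspa2 read 3.81, 4.34 and 5.82 FPKM in normal-diet and 4.59, 3.45 and 4.94 in high-fat epididymal libraries, which overlapped, while its inguinal groups stood apart. Its highest normal-diet value was in library 2, the one with testis and epididymis markers, and without that library the difference of effects was -1.16 (adjusted p = 0.0751). Hspb2 likewise overlapped between diets in epididymal adipocytes (1.85, 1.27 and 1.81 against 1.75, 1.78 and 3.43 FPKM). Hspa12b, lower in epididymal adipocytes on the high-fat diet, read 19.0, 20.7 and 26.1 and 13.1, 18.2 and 18.5 FPKM in inguinal ones (log2 difference -0.39 ± 0.24, adjusted p = 0.268), and all 9 endothelial markers had the same sign of difference between depots and were called. Hsph1 had the largest positive difference of effects among the members (1.39 ± 0.47, adjusted p = 0.102) and did not pass.

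These 4 calls rested on single libraries. The count was 0 without epididymal high-fat library 0, 1 without epididymal high-fat 1, and 8 without inguinal normal-diet 1. It was 2 without any one epididymal normal-diet library, without inguinal high-fat 1 or 2, and without inguinal normal-diet 0. With no expression filter Hspb6 alone was called. Leaving out the lymphocyte-rich inguinal libraries 0 and 2 leaves normal-diet library 1 alone in its group. The difference of effects was then -1.84 for Hspb2, -1.47 for Hspa12b and -1.09 for Hspa2. Hspb6 lost its call in 1 of 12 left-out fits (adjusted p = 0.0575), Hspb2 in 5 (at most 0.0705), Hspa12b in 7 (at most 0.0844) and Hspa2 in 8 (at most 0.0977).

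Between depots on the normal diet, 4 of 63 members (6.35%) were higher in epididymal than inguinal adipocytes and 0 lower, against 6.51% of all genes (2.36% higher, 4.15% lower). Epididymal libraries lay wholly above the inguinal ones for 8 members and wholly below for 2, against 8.82% and 10.3% of all genes (19.1% in either direction). Of the 4, 3 were small heat shock genes (15 members had an unadjusted p under 0.05 in either direction). Hspb7 read 4.13, 6.64 and 5.68 FPKM in epididymal and 0.836, 1.71 and 0 in inguinal libraries (log2 difference 2.37 ± 0.46, adjusted p = 0.0143). Hspb1 read 78.6, 107 and 79.0 and 59.1, 36.0 and 27.1 (log2 difference 1.16 ± 0.26, adjusted p = 0.0251). Hspb6 (log2 difference 0.76 ± 0.16, adjusted p = 0.0173) and Dnajc6 (log2 difference 1.78 ± 0.41, adjusted p = 0.0261), whose values are given above, followed. In each of these genes the lowest epididymal library lay above the highest inguinal one. Lymphocyte markers were lower in epididymal libraries for 9 of 10, and their part was not tested. Without inguinal libraries 0 and 2, which leaves library 1 alone in its group, the log2 difference was 1.41 for Hspb7 and 1.81 for Dnajc6. Inguinal library 1 had mitochondrial tRNA genes above 0 and the epididymal libraries had none. Depot and this library property therefore cannot be told apart in that fit. Each of 3 other scalings gave 4 higher and 1 lower, and under quantile normalization Hspb1 was not among them (adjusted p = 0.0561). No call remained when the fit held only the 6 normal-diet libraries or when epididymal library 1 was left out, and the count was 1 without epididymal 2, 2 without inguinal 2, 7 without inguinal 0 and 14 without inguinal 1.

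On the high-fat diet, in the fit without pairs, 6 members were higher in epididymal than in inguinal adipocytes and 2 lower. This was 12.7% against 10.6% of all genes (7.08% higher, 3.53% lower). The depots did not overlap for 17 members higher and 10 lower, against 23.2% and 15.2% of all genes (38.4% in either direction). Higher were Hspb7, Hspa8, Hsp90aa1, Hspd1, Dnajb6 and Hspb1, and lower were Hspb2 and Hspa12b. Hspb7 read 16.6, 16.9 and 26.1 FPKM in epididymal and 1.15, 2.03 and 2.82 in inguinal libraries (log2 difference 3.05 ± 0.46, adjusted p = 0.00215). It was the only one called with each single library left out (adjusted p at most 0.0106). Hspa8 read 298, 383 and 358 and 115, 153 and 147 FPKM (log2 difference 1.32 ± 0.29, adjusted p = 0.0129). Hspd1, the chaperonin Hsp60, read 83.8, 108 and 108 and 42.01, 48.0 and 51.8 FPKM (log2 difference 1.07 ± 0.24, adjusted p = 0.0155), while its partner Hspe1 did not pass (adjusted p = 0.129). Hsp90aa1 read 64.4, 104 and 88.4 and 32.4, 38.4 and 49.5 FPKM (log2 difference 1.08 ± 0.29, adjusted p = 0.0319), and Dnajb6, an inhibitor of protein aggregation, 25.3, 25.3 and 26.8 and 14.3, 12.5 and 14.1 (log2 difference 0.90 ± 0.21, adjusted p = 0.0180). In every one of these genes the depots stood apart without overlap.

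Hspb1 (log2 difference 0.89 ± 0.26, adjusted p = 0.0495) and Hspb2 (log2 difference -1.12 ± 0.32, adjusted p = 0.0461) lay close to the threshold, and both calls were lost when replicate numbers were used as pairs (adjusted p = 0.0592 and 0.0539). Both were also lost with no filter (0.0823 and 0.0958), trimmed-mean factors (0.0956 and 0.0505) and quantile normalization (0.240 and 0.0582). Several fits with 1 library left out lost them too (adjusted p at most 0.177 and 0.189). Hspa12b was lower in epididymal adipocytes (log2 difference -1.02 ± 0.24, adjusted p = 0.0174), as were all 9 endothelial markers, and 9 of 10 macrophage markers were higher. The count fell to 1 without epididymal high-fat library 1 and to 3 without inguinal high-fat library 0. It was 4 without epididymal high-fat 0 or 2, or inguinal high-fat 1 or 2. Scaling to nuclear protein-coding RNA turned the split from 6 higher and 2 lower to 4 and 7, with the median of all genes at -0.16, quantile normalization gave 3 and 2, and trimmed-mean factors 6 and 1. The 3 high-fat inguinal libraries all had mitochondrial tRNA genes above 0 and the 3 epididymal ones none, so depot and this library property cannot be told apart here.

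Some members differed with this library property beyond this contrast. The libraries with mitochondrial tRNA genes at 0 include every epididymal one, so depot is part of the comparison below. Among the 63 members averaging 1 FPKM or more, Dnaja1, Dnajb6 and Hspb1 (4.76%) were higher in all 8 libraries with mitochondrial tRNA genes at 0 than in the other 6, as were 0.797% of all genes, and 0 were lower (0.898% of all genes). Dnajb6 read 24.2 to 29.5 FPKM in the 8 libraries and 12.5 to 15.7 in the other 6. Hspb1 read 59.1 to 275 and 27.1 to 48.4 FPKM, and Dnaja1, the farnesylated partner of Hspa8, 41.3 to 129 and 27.6 to 40.7. Other members with high ratios of the 2 medians were Hspa1a (4.90), Hspb7 (3.29), Hspa1b (2.77), Hspa8 (2.26), Hspd1 (1.84) and Hsp90aa1 (1.73). Dnajc6 (1.88) was among them too, and Dnajb13 (0.516) and Dnajb1 (0.593) had the lowest ratios. Inguinal normal-diet library 0 was above both its replicates for some of these genes, with Hspa8 at 220.1 FPKM against 100.2 and 135.6 in its 2 replicates, Dnajb6 at 25.6 against 13.8 and 14.6, and Hspa1b at 16.6 against 5.94 and 6.71. For others it was not: Hspb7 read 0.836 FPKM against 0 and 1.71, Hsp90aa1 39.7 against 34.9 and 43.8, and Hspd1 61.1 against 34.0 and 60.2. The epididymal diet comparison lies wholly within the 8 libraries, and the inguinal one within the other 6 once library 0 is left out.

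**Figure D3:**
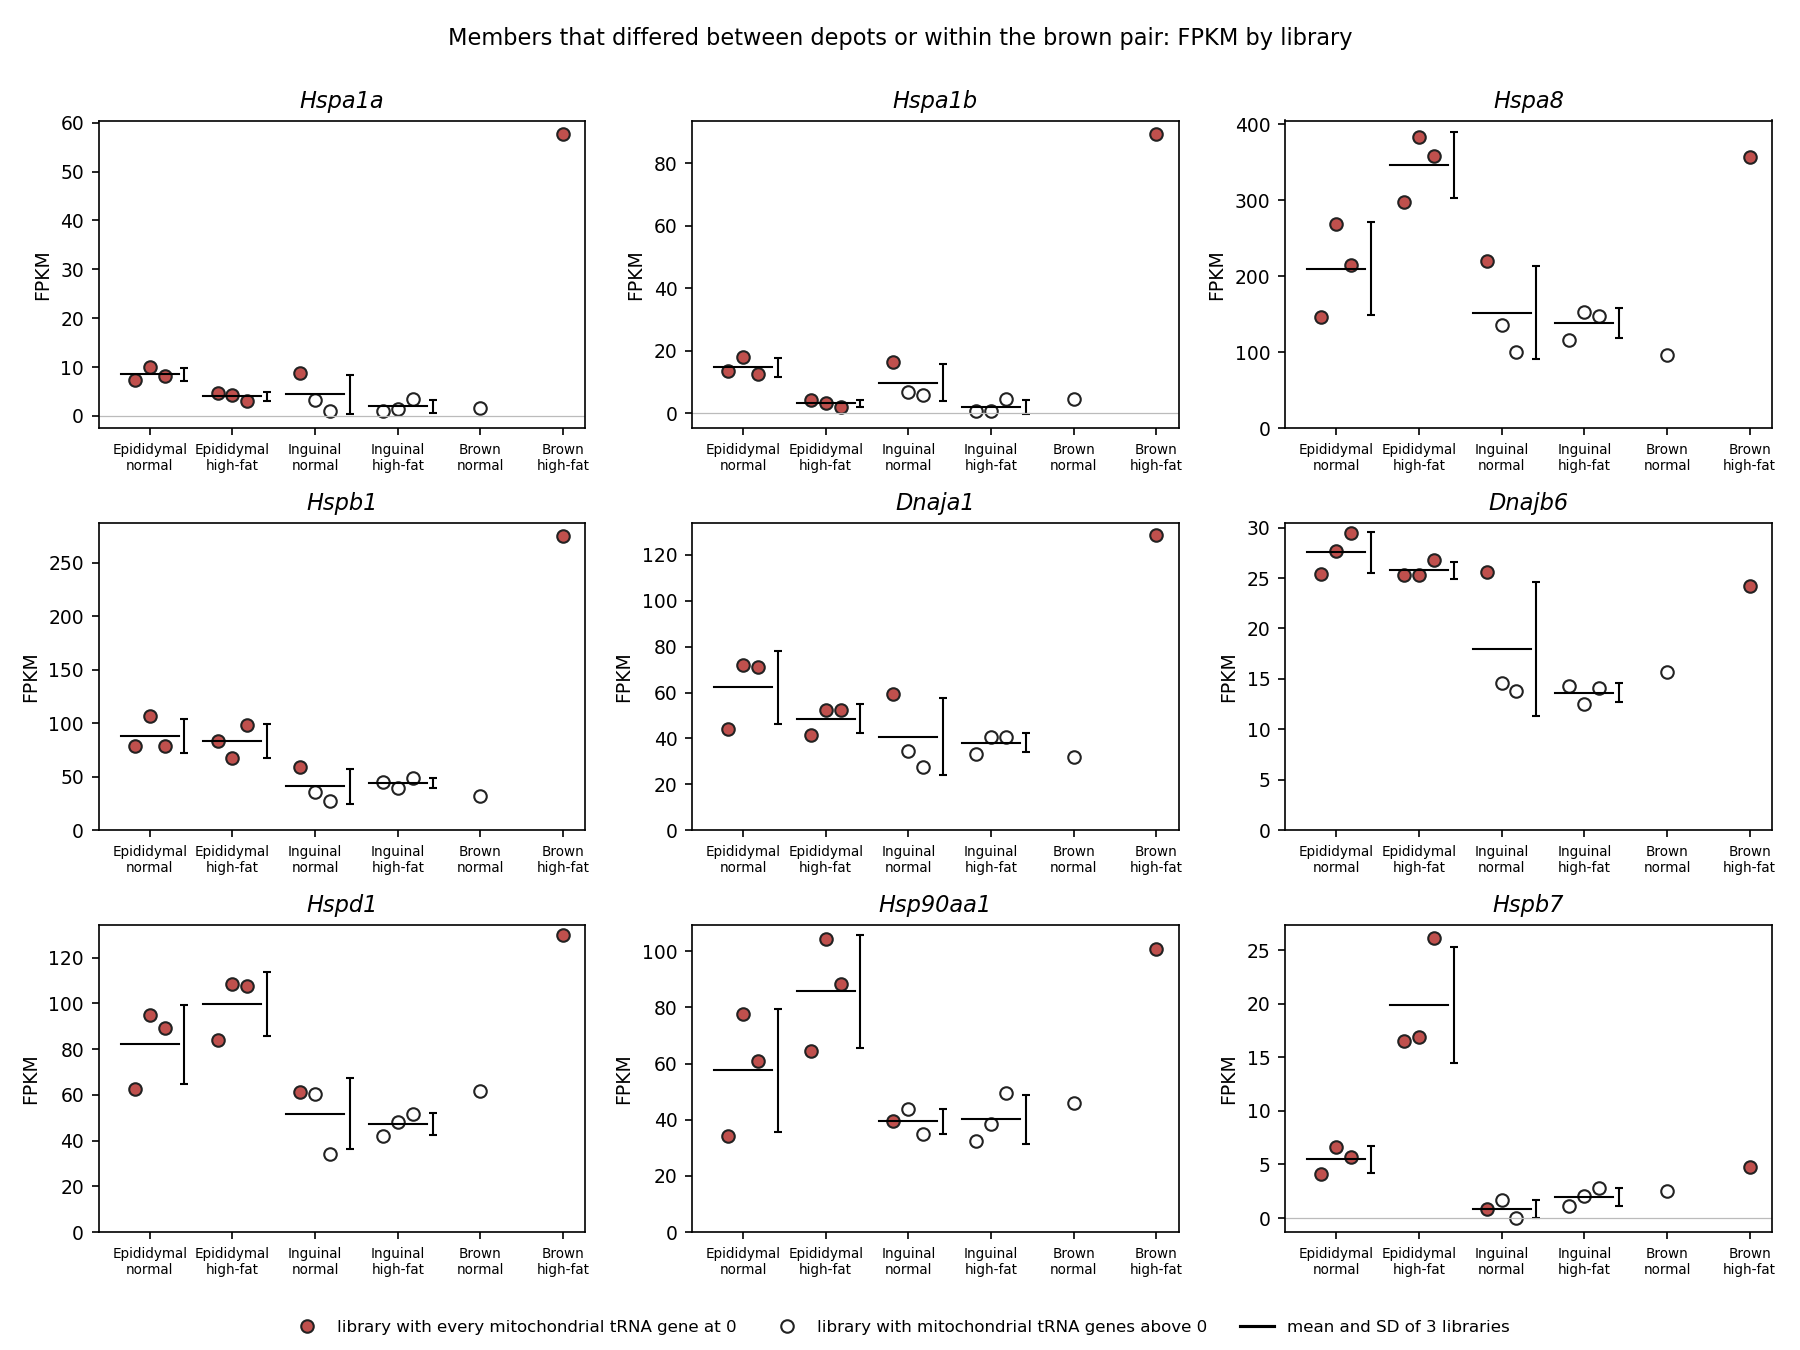
FPKM of 9 members in each of the 14 libraries, with mean and SD of the 3 libraries of each white group; filled points are libraries with every mitochondrial tRNA gene at 0. For Dnajb6, Dnaja1 and Hspb1 every filled point lies above every open point, and the brown high-fat library is the highest of the 14 for Hspa1a, Hspa1b, Hspb1, Dnaja1 and Hspd1.

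The 2 brown libraries, which have no replicates and so no test, were far apart in the inducible members. Among the 61 members averaging 1 FPKM or more over both, 18 were at least 2-fold higher on the high-fat diet (29.5%) and 0 were at least 2-fold lower. Over all 11518 genes the shares were 13.1% and 7.66% (20.8% in either direction). Hspa1a, an inducible Hsp70, was at 1.71 FPKM on the normal diet and 57.6 on the high-fat diet (33.8-fold, rank 16 from the top among 11518 genes), and its copy Hspa1b at 4.69 and 89.1 (19.0-fold, rank 19). Hspb1 was at 31.7 and 275 FPKM (8.68-fold, rank 70). These 3 genes carry the GAANNTTC pair, printed above because they differed here. Hspa2, Hspa8, Hsph1 and Dnajb1, also past 2-fold, had no match or no promoter window. Dnaja1 was at 32.0 and 129 FPKM (4.03-fold), Hspa8 at 96.2 and 356 (3.70-fold), Hsph1 at 8.36 and 30.8 (3.68-fold), Hspb6 at 10.5 and 33.5 (3.20-fold) and Dnajb1 at 47.5 and 139 (2.92-fold). Hsp90aa1 (2.19-fold), Hspd1 (2.11-fold) and Hspa12b (2.24-fold) were the other 3 of the 11 that also had a mean of at least 5 FPKM. The remaining 7, Hspa2, Hspb2, Dnaja4, Dnajb5, Dnajc12, Dnajc16 and Dnajc17, were low.

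Of the 20 core chaperones, 10 are among those past 2-fold, including the constitutive Hspa8 and the mitochondrial Hspd1, and 10 stayed within it. Hsp90ab1 was at 325 FPKM on the normal diet and 337 on the high-fat diet, Hspe1 at 108 and 114, Hspa9 at 122 and 146, and Hspa4 at 21.5 and 25.9. In the endoplasmic reticulum Hspa5 was at 155 and 139 FPKM, Hsp90b1 at 127 and 80.2, Dnajb9 at 38.7 and 40.5 and Dnajc3 at 22.5 and 17.3. The small heat shock genes Hspb7 and Hspb8 were at 2.52 and 4.75 and at 56.4 and 70.8 FPKM. Of the co-chaperone and proteostasis genes, 1 of 56 was at least 2-fold higher and 5 at least 2-fold lower. The GAANNTTC pair was present in 7 of the 14 members that were at least 2-fold higher and had a promoter window (50.0%). It was in 3 of the 35 others (8.57%), and over all genes in 7.06% and 5.88%. Hspa1a and Hspa1b, whose windows are near-identical, are counted separately among the 7. The longer form was in Hspd1 (2.11-fold), Dnajb6 (1.55-fold) and Hspe1 (1.06-fold), of which only Hspd1 passed 2-fold. The part of these letters in the brown difference was not tested. The high-fat brown library has all mitochondrial tRNA genes at 0 and the normal-diet one has 19 of 22 above 0, and immediate-early genes summed to 2900 and 1528 FPKM. Marker sums of other lists differed as well, with general adipocyte markers at 22297 FPKM on the normal diet and 14053 on the high-fat diet. Higher in the high-fat library were those going from 140 to 474 FPKM for endothelium, 23.8 to 152 for macrophages, 54.3 to 152 for smooth muscle and pericytes, 130 to 252 for skeletal muscle and 466 to 1584 for brown adipocytes. Diet and the library property cannot be told apart with 1 library each, and the part of the immediate-early genes and of these cell types in the 18 higher members, Hspa12b, Hspb2 and Hspb6 included, was not tested.

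**Figure D4:**
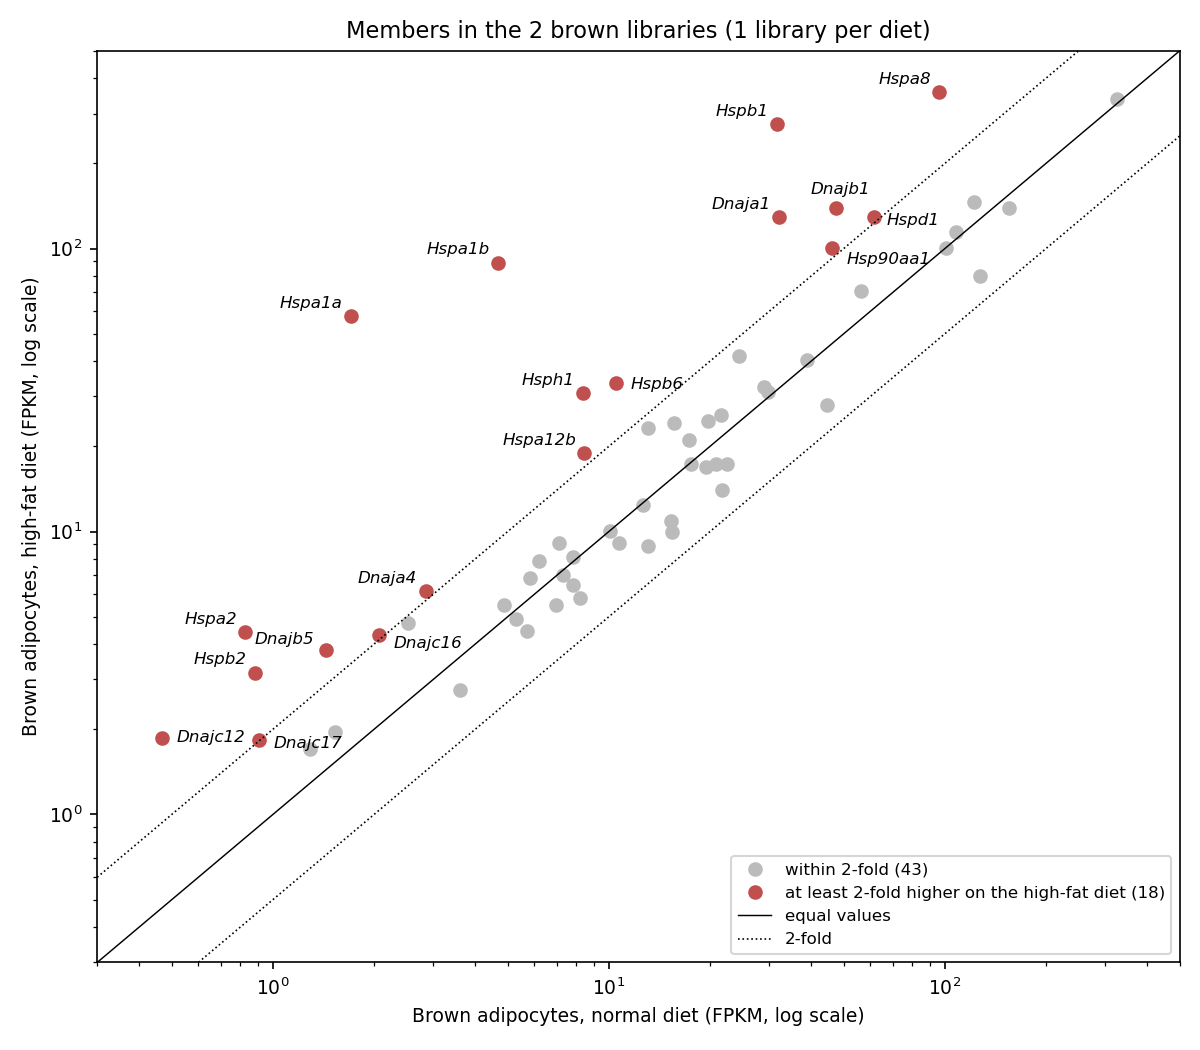
Level of the 61 members averaging 1 FPKM or more, in FPKM, in the normal-diet (horizontal) and high-fat (vertical) brown library, both on log scales, 1 point per gene; the solid line marks equal values and the dotted lines 2-fold. The 18 coloured points are at least 2-fold higher on the high-fat diet, led by Hspa1a and Hspa1b, and no point lies below the lower dotted line.

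Against white adipocytes, 4 members were higher in both brown libraries than in all 12 white ones (Dnaja3, Dnajb1, Dnajb9 and Hspe1; 0.966% of all genes) and 5 were lower (Dnajc10, Dnajc13, Dnajc17, Dnajc5 and Dnajc9; 12.4% of all genes, 13.4% in either direction), of the 63 averaging 1 FPKM or more. Mitochondrial mRNA made up 80.7% and 82.5% of coding FPKM in the normal-diet and high-fat brown libraries, and 20.6% to 66.7% in white ones. Quantile normalization gave 6 higher and 0 lower, and scaling to nuclear protein-coding RNA 6 and 1, so the number of lower members depended on the scaling. Brown fat was digested for 40 min and white fat for 20 min, so depot and digestion time cannot be told apart here. Hspe1, the mitochondrial Hsp10, was at 108 and 114 FPKM in brown adipocytes and 52.8 to 98.7 in white ones. Dnaja3, its J-domain neighbour in the matrix, was at 28.9 and 32.3 FPKM against 16.0 to 28.2. The margins were narrow, and Dnajb1 on the normal diet (47.52 FPKM) barely passed the highest white library (47.46). Dnajb9 was at 38.7 and 40.5 FPKM against 10.7 to 34.96. Dnajc10 (the reductase ERdj5) was at 7.10 and 9.10 FPKM against 9.96 to 14.9, and Dnajc13, an endosomal J-domain protein, at 7.80 and 8.11 against 9.50 to 13.9. Taken singly, the high-fat brown library exceeded every white library in 12 of 63 members (19.0%; 3.06% of all genes) and the normal-diet one in 5 (7.94%; 4.58% of all genes).

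Genes that work with these chaperones were also tested. A list of 57 co-chaperone and proteostasis genes, all tested, had 4 higher and 2 lower with the high-fat diet in epididymal adipocytes (10.5% called, against 19.5% of all genes). Bag2, an exchange factor that blocks the ubiquitin ligase Stub1, rose in both depots (log2 difference 1.07 ± 0.24, adjusted p = 0.00854 in epididymal, log2 difference 0.78 ± 0.24, adjusted p = 0.0418 in inguinal). Hyou1, the exchange factor of Hspa5, rose in epididymal adipocytes together with Hspa5 (log2 difference 0.94 ± 0.22, adjusted p = 0.0110), as did Htra2 (log2 difference 0.63 ± 0.20, adjusted p = 0.0426). Cct2, a subunit of the cytosolic chaperonin, was the fourth (log2 difference 0.58 ± 0.18, adjusted p = 0.0442). Lower there were Fkbp5, an Hsp90 co-chaperone induced by glucocorticoids (log2 difference -1.91 ± 0.38, adjusted p = 0.00408), and Bag4 (log2 difference -0.88 ± 0.19, adjusted p = 0.00574). In inguinal adipocytes 3 rose and 3 fell (10.5%): besides Bag2, the mitochondrial Clpx (log2 difference 0.69 ± 0.21, adjusted p = 0.0423) and Grpel1, the exchange factor of Hspa9 (log2 difference 0.62 ± 0.19, adjusted p = 0.0364), were higher. The prefoldin subunit Vbp1 (log2 difference -0.83 ± 0.19, adjusted p = 0.0106), Tomm34 (log2 difference -0.82 ± 0.22, adjusted p = 0.0223) and the Hsp90 co-chaperone Ptges3 (log2 difference -0.71 ± 0.22, adjusted p = 0.0441) were lower. Hsf1 itself was not called in either depot (log2 difference -0.24 ± 0.28, adjusted p = 0.617 in epididymal, log2 difference -0.54 ± 0.28, adjusted p = 0.198 in inguinal). For 0 of the 57 did limma call a difference of diet effects between depots (7 at an unadjusted p under 0.05). The inguinal calls were unstable: 0 remained when only the 6 inguinal libraries were fitted, and the count ran from 1 (without any one high-fat inguinal library) to 13 (without normal-diet 1), with 2 or 3 without each epididymal high-fat library, inguinal normal-diet 0 or inguinal normal-diet 2. The epididymal count was 3 without high-fat 1 and 12 without inguinal normal-diet 1.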

How the data were processed

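RNA of adipocytes from 3 fat depots on 2 diets was measured in 14 libraries, made from 1 µg of total RNA with New England Biolabs reagents, labelled polyA RNA, and run on an Illumina HiSeq, per the labels' protocols. The submitters' processing notes name TopHat2 2.0.9, the mm10 build and Cuffdiff 2.1.1. Judged by these tools and by their range, the deposited values are FPKM. The annotation, any strand setting and the normalization are not given in the sources used here. Low values did not fall on whole-read steps (the commonest ratio between 2 libraries held 0.643% to 0.818% of low genes), so the depth of each library is unknown. Errors therefore come from the spread between the 3 libraries of a group and not from counting. Short reads from near-identical copies (Hspa1a with Hspa1b, and members with processed pseudogenes) cannot be assigned with certainty.

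A symbol was matched to 36638 of 38553 identifiers; coordinates and promoters are RefSeq's on GRCm38.p6. Groups came from sample titles. Values of the 12 white libraries were transformed to log2(FPKM + 0.5) and fitted in limma 3.58.1 under R 4.3.3, with a mean-dependent prior (eBayes, trend), for 14959 genes with at least 0.5 FPKM in at least 3 of them, fitting 4 group means (8 residual degrees of freedom) and 5 contrasts. A Benjamini-Hochberg adjusted p under 0.05 over all genes counted as a call (two-sided). The pseudocount understates changes of low genes. Brown libraries (1 per diet) entered no test; there a 2-fold difference was counted. The procedure was tested on simulated data.

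The members and lists were chosen with earlier results of these data known. Named with values were 20 core chaperones, up to 10 called members each way per white contrast, up to 6 members each way outside the white range in brown libraries, members past 2-fold there with a mean of at least 5 FPKM, up to 3 called co-chaperone genes each way per diet contrast, and Hsf1; others were named after their values were seen.

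Other settings tried were no filter or one at 2 FPKM, a pseudocount of 0.1 or 1, trimmed mean of M values factors (trims of 30% and 5%), quantile normalization, scaling to the nuclear protein-coding sum after removing mitochondrial transcripts, the replicate number as a block, only the groups compared, each library left out in turn and, chosen after seeing the data, inguinal normal-diet libraries 0 and 2 left out. Deviations of same-numbered libraries from their group means in the comparison of depots under high-fat feeding had correlations of 0.184, 0.111 and 0.146. The numbers, whose meaning the labels do not give, may therefore pair those libraries. In the other contrasts not every pair passed 0.1, but epididymal diet came close (0.180, 0.0825 and 0.162). The fit reported for every contrast left the numbers unpaired, and the block was an alternative.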

Additional observations from a re-analysis of the deposited data

Results flagged for a closer look

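For 4 of 63 members (6.35%, against 7.22% of all genes) the effect of the high-fat diet differed between the white depots. This was by limma's interaction test (epididymal effect minus inguinal effect, log2 scale). The difference was -2.03 for Hspb2, a small heat shock protein of muscle, -1.40 for Hspa12b, -1.32 for Hspa2 and -1.06 for Hspb6. All 3 inguinal high-fat libraries were above all 3 normal-diet ones for Hspb2, Hspa2 and Hspb6, whereas Hspa12b was lower in all 3 epididymal high-fat libraries. Endothelial markers had the same sign of difference as Hspa12b for 9 of 9, and their part was not tested. All 4 calls were lost when epididymal high-fat library 0 was left out.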

How the results depend on the processing

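Of 37 calls of single members, 12 were kept with every single library left out and 25 were lost in at least 1 such fit. Under the other settings, the fit without inguinal normal-diet libraries 0 and 2 among them, 16 were kept throughout and 21 were lost in at least 1. The sign changed for 0 of the 37, but leaving out 1 library cannot reverse a difference between groups that do not overlap. Counts moved as well. Leaving out inguinal normal-diet libraries 0 and 2 was a setting chosen after seeing the data. It leaves library 1 alone in its group and assumes that this library varies like the other groups. Apart from its part in the 16 and 21 above, counts of calls from that fit are therefore not set beside the others. Log2 differences from it are given above. Quantile normalization gave 17 members for inguinal diet, where 22.6% of all genes were called in place of 19.5%, and 5 for depot on the high-fat diet. No expression filter gave 1 for the difference of diet effects, 5 for depot on the high-fat diet and 3 of the inguinal co-chaperone list. Trimmed-mean factors gave 10 of that list and nuclear protein-coding scaling 11. With only the groups compared, 0 members were called for depot on the normal diet and 0 of the inguinal co-chaperone list. In brown libraries a mean of at least 5 FPKM left 11 members past 2-fold.

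With 1 library left out, counts ranged from 7 to 13 for epididymal diet, 7 to 20 for inguinal diet, 0 to 8 for the difference of diet effects, 0 to 14 for depot on the normal diet, 1 to 8 for depot on the high-fat diet, 3 to 12 for the co-chaperone list in epididymal and 1 to 13 in inguinal adipocytes.

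With the replicate number as a block, 13 members were called for epididymal diet, 15 for inguinal diet, 5 for the difference of diet effects, 5 for depot on the normal diet and 6 for depot on the high-fat diet, and the co-chaperone list gave 15 and 9 of 57, where 22.8% and 23.1% of all genes were called. For depot on the high-fat diet, the only contrast with every same-number correlation above 0.1, the block changed no call beside those of Hspb1 and Hspb2. Depth is unknown, so no counting error can be given for low members such as Dnajc6 and Hspb2.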
